A study of Mus musculus with 106 samples.

Results

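The comparison described here is the effect of Huntington's disease (HD) genotype in cerebellar vGluT2 neurons set against its effect in cerebellar Gad2 neurons. Its members are the RiboTag IP samples labelled cerebellum with cell type Gad2 or vGlut2, 23 of the 106 samples in the series. There were 6 control and 6 HD samples for Gad2, and 5 control and 6 HD samples for vGluT2, each from its own mouse. A further 14 total RNA samples of the same lines and region served as a whole-tissue reference, and 13 of them came from mice that also gave an IP.

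Granule cells, the small excitatory neurons of the cerebellar cortex, make up most of the neurons of the cerebellum and send parallel fibres to the Purkinje cells. Purkinje cells and the molecular layer interneurons and Golgi cells are inhibitory and carry Gad2, an enzyme that makes GABA. Huntington's disease is caused by an expanded CAG repeat in *Htt*, and the cerebellum has been studied less in it than the striatum.

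HD mice were heterozygous for the knock-in allele Q200 at *Htt* (Hdh Q7/Q200), and controls were Q7/Q7 mice of the same crosses. By the study's methods all were on a 129S4 background and were taken as adults of about the same age. Mice of both genotypes carried a RiboTag allele (HA-tagged *Rpl22*) recombined by Cre from the *Gad2* or the *Slc17a6* (vGluT2) locus, so any cell that had ever expressed the driver is tagged. An IP holds mRNA bound to tagged ribosomes, and RNA of untagged cells can be carried along. Gad2 and vGluT2 samples came from different mice and lines, so cell type cannot be told apart from line. Counts on mouse genes ran from 26873270 to 93692505 per IP. The highest count was that of the Gad2 HD sample labelled as re-sequenced (re1). By the study's methods, libraries that failed at first were sequenced again with longer reads, so run and read length differ for it. The group medians were 35626924 (Gad2 control), 40334584 (Gad2 HD), 36498930 (vGluT2 control) and 37796762 (vGluT2 HD). Levels are CPM, the usual counts scaled for sequencing depth, after TMM scaling over the 23 IPs, and changes are HD minus control on the log2 scale.

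The labels were first set against marker levels. *Slc32a1*, the vesicular GABA transporter, averaged 796 CPM in Gad2 control IPs and 19.2 CPM in vGluT2 control IPs. *Pcp2*, a Purkinje cell marker, averaged 1403 CPM and 19.0 CPM in the same groups. *Cbln3*, which granule cells secrete, averaged 425 CPM in Gad2 control IPs and 4617 CPM in vGluT2 control IPs. Markers of each labelled cell type were thus many times higher in its own IPs, while the markers of granule cells were not absent from Gad2 IPs. *Slc17a6*, the gene of the driver, was at 22.2, 45.3, 21.6, 23.5 and 108.3 CPM in vGluT2 control IPs, with replicate 5 far above the others, and at 1.78 to 9.26 CPM (median 3.74) in Gad2 control IPs.

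*Htt* itself, whose gene-level counts do not separate the alleles, ran from 49.0 to 121 CPM (median 99.4) in Gad2 controls and from 56.6 to 70.4 CPM (median 64.6) in Gad2 HD IPs. In vGluT2 controls it was at 83.0, 98.5, 94.6, 130 and 97.6 CPM, and in vGluT2 HD IPs from 64.0 to 95.4 CPM (median 80.1). The genotypes overlapped in both cell types. The log2 changes of *Htt* were −0.57 in Gad2 (SE 0.157, edgeR adjusted p = 0.553) and −0.33 in vGluT2 (SE 0.163, edgeR adjusted p = 0.345). Their difference was 0.24 (SE 0.226, edgeR adjusted p = 0.855).

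HD changed 15 genes differently in vGluT2 and Gad2 neurons, and in each of them the change was the larger in vGluT2 neurons. Rising genes included *Cbx8*, *Rasa4* and *Dbndd1*, and falling genes included *Igfbp5*, *Clstn2*, *Stum* and *Vsnl1*. The test of the genotype by cell type interaction (edgeR, Benjamini-Hochberg adjusted p of 0.05 or less) called these 15 of 13971 protein-coding genes, or 0.107%. The difference was positive for 7 genes (0.0501%) and negative for 8 (0.0573%). All 15 were also called for HD against control in vGluT2 IPs, and 1 of them, *Igfbp5*, in Gad2 IPs. HD and control samples did not overlap for 15 of the 15 genes in vGluT2 IPs and for 2 of the 15 in Gad2 IPs. Over all genes tested, 3.82% had groups apart in vGluT2 IPs and 0.279% in Gad2 IPs. The count depended on the tool, at 73 genes by DESeq2 and 167 by limma, and both held all 15.

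*Cbx8*, a chromodomain subunit of polycomb repressive complex PRC1 (chromosome 11 of GRCm38, 119036305 to 119040969), was at 24.2, 23.8, 24.5, 17.4 and 19.2 CPM in vGluT2 controls and at 41.6 to 64.2 CPM (median 51.3) in vGluT2 HD IPs. In Gad2 IPs *Cbx8* ran from 13.4 to 19.4 CPM (median 16.3) in controls and from 21.4 to 25.5 CPM (median 21.8) in HD mice. The genotypes were apart in both cell types, with the wider gap in vGluT2. The difference of the log2 changes was 0.81 (SE 0.164, edgeR adjusted p = 0.0446), and this call was kept in 10 of the 23 fits that left out 1 sample. *Cbx2*, which also encodes a PRC1 subunit, was low, at 0.402 to 1.10 CPM in Gad2 controls, 1.21 to 1.93 CPM in Gad2 HD IPs, 1.42 to 2.24 CPM in vGluT2 controls and 3.73 to 4.91 CPM in vGluT2 HD IPs. The genotypes of *Cbx2* were apart in both cell types and its log2 changes were 1.07 in vGluT2 (edgeR adjusted p = 0.0132) and 0.99 in Gad2 (edgeR adjusted p = 0.212; difference 0.07, SE 0.339, edgeR adjusted p = 0.97).

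*Igfbp5* encodes a secreted protein that binds insulin-like growth factors (chromosome 1, 72857932 to 72874884). In vGluT2 controls *Igfbp5* was at 492, 536, 342, 391 and 500 CPM, and in vGluT2 HD IPs at 115 to 151 CPM (median 127). In Gad2 IPs it fell from 94.5 to 133 CPM (median 109) in controls to 55.4 to 79.7 CPM (median 74.2) in HD mice. The genotypes did not overlap in either cell type. The log2 changes were −1.79 in vGluT2 and −0.61 in Gad2 (edgeR adjusted p = 0.0413), with a difference of −1.18 (SE 0.167, edgeR adjusted p = 0.00129).

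*Stum* and *Clstn2* fell in vGluT2 IPs and were not called in Gad2 IPs. *Stum*, the mouse counterpart of a fly gene needed for mechanical sensing (chromosome 1, 180432387 to 180483504), was at 15.4, 19.3, 10.1, 14.1 and 17.8 CPM in vGluT2 controls and at 2.48 to 6.29 CPM (median 4.13) in vGluT2 HD IPs. In Gad2 IPs *Stum* ran from 34.6 to 38.9 CPM in controls and from 32.2 to 40.7 CPM in HD mice. The HD samples were lower in vGluT2 IPs without overlap and lay around the control range in Gad2 IPs. Its difference was −1.83 (SE 0.268, edgeR adjusted p = 0.00129), the largest of the 15 in size.

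*Clstn2*, a calsyntenin, which is an adhesion protein of synapses (chromosome 9, 97444395 to 98033181), was at 48.7, 53.4, 49.0, 58.9 and 60.5 CPM in vGluT2 controls and at 12.9 to 26.4 CPM (median 19.3) in vGluT2 HD IPs. In Gad2 IPs *Clstn2* ran from 76.7 to 93.6 CPM in controls and from 66.8 to 87.1 CPM in HD mice, with overlap. The difference was −1.29 (SE 0.186, edgeR adjusted p = 0.00129). *Vsnl1*, a neuronal calcium sensor (chromosome 12, 11325242 to 11436613), was at 2334, 2003, 1777, 1891 and 1961 CPM in vGluT2 controls and at 1059 to 1272 CPM (median 1178) in vGluT2 HD IPs. In Gad2 IPs *Vsnl1* ran from 202 to 314 CPM in controls and from 259 to 308 CPM in HD mice. Only the vGluT2 genotypes of *Vsnl1* were apart, and its difference was −0.81 (SE 0.145, edgeR adjusted p = 0.0116).

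The other falling genes were *Extl1* (difference −1.32), an exostosin-like glycosyltransferase, *Zcwpw1* (−1.25 on the log2 scale), a reader of histone methylation, *Armh4* (−1.01) and *Rgs16* (−0.91), which speeds the shutdown of G protein signals. *Rgs16* was at 33.6 to 46.7 CPM in vGluT2 controls and 15.3 to 24.7 CPM in vGluT2 HD IPs, and at 28.9 to 38.0 CPM against 27.0 to 35.2 CPM in Gad2 IPs. *Armh4* was at 159 to 222 CPM in vGluT2 controls and 90.2 to 107 CPM in vGluT2 HD IPs, and at 226 to 311 CPM against 249 to 331 CPM in Gad2 IPs. In both genes the vGluT2 genotypes were apart and those of Gad2 overlapped.

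The other rising genes were *Rasa4* (difference 1.40), a Ras GTPase-activating protein, *Dbndd1* (1.33), *Zfpm1* (1.20), a cofactor of GATA factors, *9030025P20Rik* (0.93) and *Asic2* (0.90), a proton-gated sodium channel. *Rasa4* was at 10.2, 9.76, 11.4, 11.3 and 10.7 CPM in vGluT2 controls and at 20.5 to 31.9 CPM in vGluT2 HD IPs, while Gad2 IPs held 21.4 to 37.0 CPM in controls and 21.8 to 31.5 CPM in HD mice. *Asic2* was at 18.5 to 27.5 CPM in vGluT2 controls and 35.2 to 46.9 CPM in vGluT2 HD IPs, against 142 to 184 CPM and 145 to 185 CPM in Gad2 IPs. *Rasa4*, *Dbndd1*, *Zfpm1* and *Asic2* were lower in vGluT2 than in Gad2 control IPs, with log2 ratios from −3.32 for *Dbndd1* to −1.40 for *Rasa4*.

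**Figure D1:**
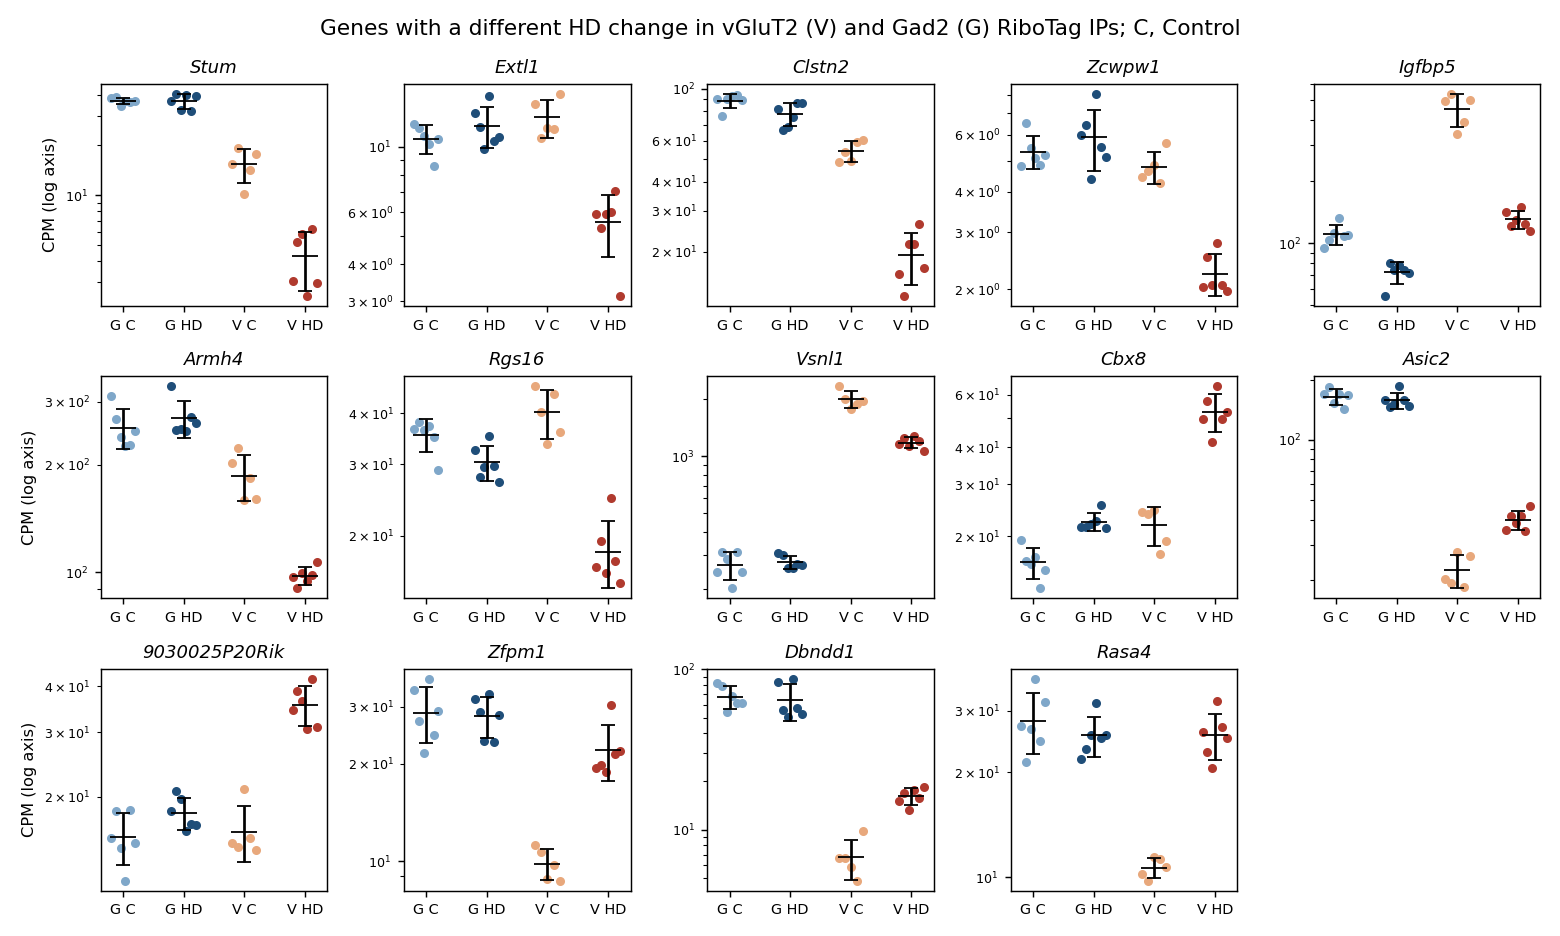
Level of 14 of the 15 genes called for the interaction in each RiboTag IP, in CPM on a log axis (G, Gad2; V, vGluT2; C, control). Points are samples and bars the mean and SD (n = 6, 6, 5 and 6). The vGluT2 genotypes are apart in all 14 panels and the Gad2 genotypes in 2, *Igfbp5* and *Cbx8*.

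In total RNA the same interaction, taken between the lines, called 249 of 14477 genes (1.72%), 52 positive (0.359%) and 197 negative (1.36%). DESeq2 called 1843 genes for it. Of the 15 genes above it called 0 by edgeR, with 5 at an unadjusted p under 0.05, and DESeq2 called 1. *Vsnl1* had the lowest edgeR adjusted p of them, 0.0758, with a difference of −0.52. HD against control in total RNA, with the line as a covariate, called 3704 genes (25.6%), 12 of the 15 among them, and all 15 had the sign seen in vGluT2 IPs. For *Igfbp5* the total RNA change was −1.26 (SE 0.109, edgeR adjusted p = 3.41e-05). Fewer cells of a type and less RNA per cell cannot be told apart in such samples.

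HD against control called 361 genes in vGluT2 IPs (2.58%), 168 higher (1.2%) and 193 lower (1.38%), and 7 genes in Gad2 IPs (0.0501%), 1 higher (0.00716%) and 6 lower (0.0429%). The median SE was 0.181 in vGluT2 and 0.173 in Gad2. Each gene has 1 dispersion for both cell types in this fit, so these values cannot compare their precision. Of the 361 genes, 271 had the same sign in Gad2 IPs and 15 were called for the interaction, so for the others a difference between cell types was not shown. DESeq2 called 651 genes in vGluT2 IPs and 23 in Gad2 IPs, and limma 991 and 125. Leaving out a single vGluT2 control (replicate 1) left 196 vGluT2 calls, and leaving out a single sample gave 2 to 13 Gad2 calls. The higher genes had a median log2 change of 0.64 in vGluT2 and 0.08 in Gad2, and the lower ones −0.76 and −0.13. Over all genes tested the medians were −0.03 and 0.02. In total RNA, where 25.6% of all genes tested were called (12.6% higher and 13% lower), 200 of the 361 were called with the same sign and 2 with the opposite sign.

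**Figure D2:**
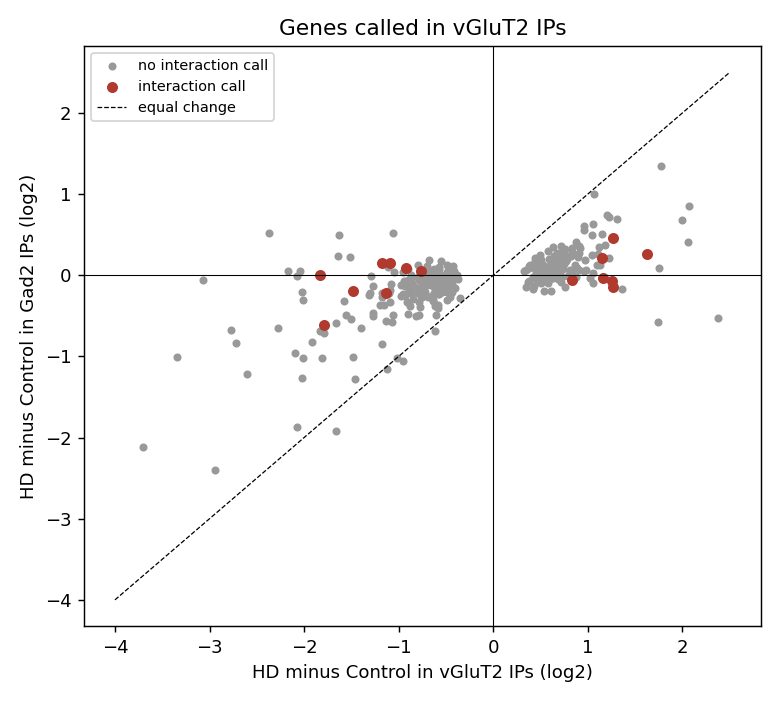
Log2 change in vGluT2 IPs (horizontal) and Gad2 IPs (vertical) of the 361 genes called in vGluT2 IPs, one point a gene, with the line of equal change dashed. Red points are the 15 interaction genes, and 271 of the 361 points have the same sign on both axes.

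The genes called in both cell types were *Ccnd1*, *Car9*, *Chil5*, *Grm4*, *Ccdc63* and *Igfbp5*, and 5 of these 6 were not called for the interaction. *Ccnd1* and *Grm4* kept the Gad2 call with each cell type fitted alone, while *Car9*, *Chil5*, *Ccdc63* and *Igfbp5* lost it (edgeR adjusted p = 0.305, 0.348, 0.162 and 0.179). The log2 changes of the genes that lost the call were −1.90, −1.96, −1.05 and −0.64 there. In the main fit they were −1.87, −1.91, −1.02 and −0.61. Without a filter on low counts *Ccdc63* and *Igfbp5* lost the Gad2 call, at log2 changes of −1.02 and −0.61 (edgeR adjusted p = 0.0574 for both). *Chil5* lost it by limma, at −1.52 (adjusted p = 0.0577, against 0.0175 by edgeR). In the 23 fits that left out 1 sample the Gad2 call was kept in 23 for *Ccnd1* and *Car9*, 20 for *Chil5*, 16 for *Grm4*, 13 for *Ccdc63* and 6 for *Igfbp5*. *Ccnd1*, cyclin D1, which drives entry into the cell cycle (chromosome 7, 144929931 to 144939925), was at 27.9, 30.1, 35.1, 29.8 and 22.4 CPM in vGluT2 controls and at 86.7 to 104 CPM (median 102) in vGluT2 HD IPs. In Gad2 IPs *Ccnd1* ran from 6.86 to 9.87 CPM (median 7.88) in controls and from 12.9 to 28.3 CPM (median 20.1) in HD mice. The genotypes of *Ccnd1* were apart in both. Its log2 changes were 1.78 and 1.35 (edgeR adjusted p = 4.72e-07 and 9.68e-05), with a difference of 0.43 (SE 0.219, edgeR adjusted p = 0.733).

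*Grm4*, a presynaptic glutamate receptor of parallel fibres, was at 1110, 642, 932, 1226 and 808 CPM in vGluT2 controls and at 328 to 566 CPM (median 399) in vGluT2 HD IPs. In Gad2 IPs *Grm4* ran from 87.4 to 128 CPM (median 104) in controls and from 48.7 to 73.0 CPM (median 57.8) in HD mice. *Car9*, a carbonic anhydrase, was at 24.95, 20.5, 19.9, 24.6 and 21.7 CPM in vGluT2 controls and 3.95 to 7.90 CPM in vGluT2 HD IPs, and at 1.56 to 3.07 CPM against 0.148 to 0.885 CPM in Gad2 IPs. For both genes the genotypes were apart in both cell types. The log2 changes in Gad2 were −0.85 for *Grm4* (SE 0.152, edgeR adjusted p = 0.0315), −1.87 for *Car9* (SE 0.28, edgeR adjusted p = 0.00464), −1.91 for *Chil5* and −1.02 for *Ccdc63*. In vGluT2 they were −1.18, −2.07, −1.66 and −2.01.

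*Ttll3*, a tubulin glycylase, was called in Gad2 IPs and not in vGluT2 IPs. It ran from 3.15 to 6.10 CPM (median 4.85) in Gad2 controls and from 1.76 to 2.77 CPM (median 2.21) in Gad2 HD IPs, with no overlap. In vGluT2 IPs *Ttll3* was at 2.47, 2.66, 3.94, 4.02 and 2.62 CPM in controls and at 2.19 to 3.66 CPM in HD mice, with overlap. The difference was 0.90 (SE 0.282) and was not called (edgeR adjusted p = 0.357). The Gad2 call of *Ttll3* was lost with each cell type fitted alone (edgeR adjusted p = 0.162), without a filter on low counts (0.0633) and with *Xist* as a covariate (0.0509), and was kept in 12 of the 23 fits that left out 1 sample. Its log2 changes in the 3 fits that lost the call were −1.09, −1.07 and −1.02, against −1.06 in the main fit.

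The largest changes in vGluT2 IPs outside these genes were in genes of low level. *Myo15*, an unconventional myosin, was at 0.859, 0.869, 0.694, 1.76 and 1.09 CPM in vGluT2 controls and at 0.0264 to 0.154 CPM (median 0.0637) in vGluT2 HD IPs. *Chrnb4*, a nicotinic acetylcholine receptor subunit, was at 6.14, 7.01, 4.61, 6.69 and 6.53 CPM in vGluT2 controls and at 0 to 1.63 CPM (median 0.541) in vGluT2 HD IPs. *Kcnh3*, a voltage-gated potassium channel, was at 1.40, 1.51, 0.694, 2.20 and 4.49 CPM in vGluT2 controls and at 0.136 to 0.486 CPM (median 0.279) in vGluT2 HD IPs. In these genes each vGluT2 HD sample was below each vGluT2 control. The log2 changes were −3.71 (SE 0.64), −3.35 (SE 0.663) and −2.77 (SE 0.536), in the order given. The same held for *Tnfsf13* (−3.07) and *Bnipl* (−2.95), at 0.841 to 2.23 CPM and 1.15 to 2.79 CPM in vGluT2 controls and at most 0.276 and 0.317 CPM in vGluT2 HD IPs. Outside vGluT2 controls their group means were at most 0.163 CPM for *Tnfsf13* and 0.320 CPM for *Bnipl*. The count filter takes the mean over all IPs, so both genes passed it largely through vGluT2 controls. That selection favours a fall in vGluT2 HD IPs, so their apartness is not independent evidence.

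In Gad2 IPs *Myo15* was at 0 to 1.22 CPM in controls and 0.0548 to 0.241 CPM in HD mice, *Chrnb4* at 0 to 0.802 CPM and 0.0268 to 0.627 CPM, and *Kcnh3* at 0.205 to 1.02 CPM and 0.134 to 0.680 CPM. The Gad2 genotypes overlapped for *Myo15*, *Chrnb4*, *Kcnh3*, *Tnfsf13* and *Bnipl*. At these levels the SE of the difference was wide, from 0.742 for *Kcnh3* to 1.10 for *Bnipl*, and the differences were not called (lowest edgeR adjusted p = 0.379, for *Tnfsf13*).

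Granule cell RNA was measured in the Gad2 IPs through the defining markers *Gabra6*, *Cbln3*, *Fat2*, *Neurod1* and *Slc17a7*, of which none was at 0. As a percent of the mean in vGluT2 control IPs, Gad2 control IPs held 4.30 to 12.7% of *Neurod1*, 6.09 to 11.7% of *Cbln3*, 6.39 to 16.9% of *Gabra6*, 7.999 to 13.0% of *Slc17a7* and 9.56 to 22.8% of *Fat2*. Gad2 HD IPs held 2.46 to 8.92% of *Neurod1*, 4.70 to 8.31% of *Cbln3*, 4.93 to 16.1% of *Gabra6*, 10.1 to 13.5% of *Slc17a7* and 9.23 to 16.1% of *Fat2*. The genotypes overlapped for each marker. Total RNA of Gad2 controls held 44.9 to 60.9% of *Cbln3* and 23.8 to 50.4% of *Neurod1*. The lowest of the markers in each Gad2 control is an upper limit of the granule cell share carried over, if the markers are silent in Gad2 cells. It averaged 7.46%. In Gad2 HD IPs the lowest marker averaged 5.895% of the vGluT2 control level, which is no upper limit there. *Cbln3* and *Neurod1*, the lowest markers, averaged only 56.6% and 54.2% of that level in vGluT2 HD IPs. Against vGluT2 HD IPs, Gad2 HD IPs held 11.5% of *Cbln3* and 11.6% of *Neurod1*.

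The summed level of the defining markers in Gad2 IPs was 626 to 1236 CPM in controls and 579 to 994 CPM in HD mice (exact permutation test, two-sided, p = 0.216, adjusted p = 0.746 over all measures). In vGluT2 IPs it was 7225 to 10100 CPM (median 9634) in controls and 5582 to 6614 CPM (median 6327) in HD mice, without overlap (exact permutation test, two-sided, p = 0.00216, adjusted p = 0.0497). The sum over the full list of 14 granule cell markers, 13880 to 18940 CPM in vGluT2 controls and 12180 to 14220 CPM in vGluT2 HD IPs, did not pass (exact permutation test, two-sided, p = 0.00433, adjusted p = 0.0664). Of the 5 defining markers edgeR called 1 lower in vGluT2 IPs (1.38% of all genes tested), and DESeq2 and limma called 2 each. The edgeR call was *Cbln3*, the most abundant, whose mean went from 4617 CPM in controls to 2614 CPM in HD mice (log2 change −0.82, SE 0.15, edgeR adjusted p = 0.00219). *Neurod1* (−0.88), *Gabra6* (−0.39) and *Slc17a7* (−0.16) were not called there (edgeR adjusted p = 0.0871, 0.486 and 0.622), and the vGluT2 genotypes of *Gabra6*, *Slc17a7* and *Fat2* overlapped. Against vGluT2 IPs of their own genotype, Gad2 IPs held 7.71% of *Neurod1* in controls and 11.6% in HD mice, and 11.1% and 15.9% of *Gabra6*. The shares of *Cbln3* were 9.21% and 11.5% and those of *Slc17a7* 11.2% and 13.3%, while those of *Fat2* were 16.1% and 14.3%.

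Purkinje cell markers summed to 25350 to 32840 CPM (median 30440) in Gad2 controls and to 20550 to 27400 CPM (median 24410) in Gad2 HD IPs (exact permutation test, two-sided, p = 0.0216, adjusted p = 0.142). Of the 14 Purkinje cell genes edgeR called 0 in Gad2 IPs (3 at an unadjusted p under 0.05, 0 by DESeq2 and 2 by limma), and 1 of the 14 was positive. Over all genes tested 0.0501% were called in Gad2 IPs, and 7710 of 13971 were positive. Microglia markers summed to 72.2 to 152 CPM in Gad2 controls and 70.1 to 118 CPM in Gad2 HD IPs, and to 29.8 to 46.2 CPM and 25.6 to 39.5 CPM in vGluT2 IPs. Unipolar brush cell and cerebellar nuclei markers, of other vGluT2 neurons, summed to 90.4 to 167 CPM in vGluT2 controls and 58.6 to 104 CPM in vGluT2 HD IPs (exact permutation test, two-sided, p = 0.0195, adjusted p = 0.142). Their mean on the log2 CPM scale averaged 3.26 and 2.83 in these groups (exact permutation test, two-sided, p = 0.00866, adjusted p = 0.0996). The part of these markers in the genotype changes was not tested.

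**Figure D3:**
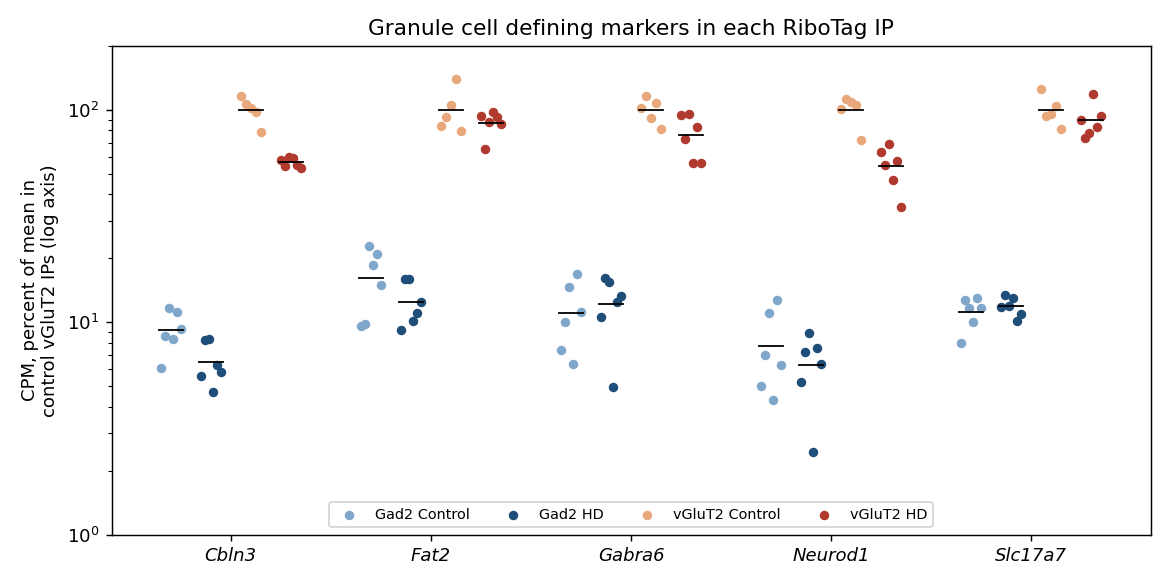
Granule cell defining markers in each RiboTag IP as a percent of the mean in vGluT2 control IPs, on a log axis; points are samples and lines group means. Gad2 IPs lie well below vGluT2 IPs for each marker, and *Cbln3* in vGluT2 HD IPs lies below all vGluT2 controls.

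The level that a share of 7.46% of the vGluT2 control level would add was set against the Gad2 control level of each gene. It came to 86.5% of the Gad2 level for *Chil5*, 76.5% for *Car9*, 66.3% for *Grm4*, 30.6% for *Igfbp5*, 26.5% for *Ccnd1* and 21.0% for *Ccdc63*, but 5.02% for *Ttll3*. With that share in both genotypes and the rest of the level held fixed, the vGluT2 change alone would give log2 changes in Gad2 of −1.29 for *Chil5* (observed −1.91), −1.26 for *Car9* (observed −1.87) and −0.67 for *Grm4* (observed −0.85). The same arithmetic gave −0.35 for *Igfbp5* (observed −0.61), 0.72 for *Ccnd1* (observed 1.35), −0.25 for *Ccdc63* (observed −1.02) and −0.01 for *Ttll3* (observed −1.06). The part of carried-over RNA in these changes was not tested. For *Vsnl1* the share came to 55.5% of the Gad2 level and the arithmetic to −0.37, while the observed Gad2 change was 0.05 (SE 0.1). Other genes also had arithmetic and observed values apart. For *Neurod1*, one of the markers that set the limit, the share came to 96.7% and the arithmetic to −0.84 (observed −0.29), and for *Cbln1* to 87.6% and −0.54 (observed −0.31). Of markers of other vGluT2 neurons, *Slc17a6* had a share of 75.9% with −0.55 by the arithmetic (observed 0.65, SE 0.579), *Eomes* 53.3% with −0.32 (observed −0.84) and *Grp* (0 to 0.200 CPM in Gad2 controls) 203% with −1.45 (observed 0.15, SE 0.747). For *Tnfsf13* and *Chrnb4*, both of low level, the shares were 99.1% and 100.7% and the arithmetic gave −3.02 and −3.34 (observed −0.06 and −1.005, the latter with SE 0.675).

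The vGluT2 calls were then split by the control level in vGluT2 over that in Gad2. The same control samples enter the log2 changes, so class and change are not independent. Over all genes tested 1.38% were called lower and 1.2% higher in vGluT2 IPs. Of 1541 genes over 2-fold higher in vGluT2, 94 were called lower in vGluT2 IPs, with a median Gad2 change of −0.24 (all genes of this class 0.04), and 82 of the 94 were negative in Gad2. The carry-over arithmetic gave a median of −0.23 for them. In the same class 12 genes were called higher in vGluT2 IPs, and 12 of the 12 were positive in Gad2, with a median of 0.35 against 0.20 by the arithmetic. Of 10070 genes within 2-fold, 112 were called higher in vGluT2 IPs and 87 lower, and 90 and 60 of these had the same sign in Gad2. Their median Gad2 changes were 0.10 and −0.06, against 0.05 and −0.05 by the arithmetic (all genes of this class 0.02). Of 2360 genes over 2-fold higher in Gad2, 44 were called higher in vGluT2 IPs, with a median change of 0.72 there and −0.02 in Gad2 (all genes of this class −0.04), and 18 of the 44 were positive in Gad2. In that class 12 genes were called lower in vGluT2 IPs, of which 9 were negative in Gad2 (median −0.10). With the granule marker level as a covariate within Gad2 IPs, 50 genes were called for the interaction, all 15 among them. In Gad2 IPs 4 were called, 3 of them among the 7 (*Ccnd1*, *Car9* and *Chil5*), while *Grm4*, *Ccdc63*, *Igfbp5* and *Ttll3* each had an edgeR adjusted p of 0.0552. The log2 changes of these genes with the covariate were −0.81, −1.03, −0.60 and −0.96, in the order given. Without it they were −0.85, −1.02, −0.61 and −1.06.

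Gene lists were described by counts and medians beside those of all genes tested, where the median interaction difference was −0.05. Of 25 genes of vesicle fusion, 5 fell in vGluT2 IPs (*Snap25*, *Vamp1*, *Syt7*, *Doc2b* and *Cplx3*) and *Otof* rose, with a median change of −0.11 in vGluT2 and −0.02 in Gad2. Over all genes tested 1.38% were called lower and 1.2% higher in vGluT2 IPs. All of these members but *Vamp1* are genes that the study names from these samples, so their count is not independent evidence. *Snap25*, a SNARE protein of synaptic vesicle release, was at 9966 to 12520 CPM in vGluT2 controls and 5377 to 8112 CPM in vGluT2 HD IPs without overlap, and at 1526 to 3753 CPM against 1590 to 3430 CPM in Gad2 IPs with overlap. Its difference was −0.73 and was not called (SE 0.254, edgeR adjusted p = 0.482).

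*Cplx3*, a complexin that regulates vesicle fusion, was at 5.45, 1.74, 4.17, 1.35 and 1.78 CPM in vGluT2 controls and at 0.248 to 0.581 CPM in vGluT2 HD IPs. In Gad2 IPs *Cplx3* was at 4.56 to 6.05 CPM in controls and 2.07 to 4.57 CPM in HD mice. The vGluT2 genotypes were apart and the Gad2 ranges just met, and the difference of −1.88 was not called (SE 0.444, edgeR adjusted p = 0.105). Of 17 genes that the study names for cerebellar neurons, a list chosen on these samples, 5 rose and 6 fell in vGluT2 IPs (1.2% and 1.38% of all genes tested), and 1 rose and 1 fell in Gad2 IPs (0.00716% and 0.0429%). *Plk5*, a polo-like kinase without cell cycle activity in neurons, had log2 changes of −1.12 in vGluT2 and −1.16 in Gad2, with a difference of 0.03 (SE 0.358, edgeR adjusted p = 0.988).

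Among membrane proteins, 2 of 7 metabotropic glutamate receptors fell in vGluT2 IPs (*Grm2* and *Grm4*; 1.38% of all genes tested), with a list median of −0.62 in vGluT2 and −0.04 in Gad2, and *Grm4* was the member called in Gad2 IPs. Among 13 GABA-A receptor subunits edgeR called 0 in vGluT2 IPs (1 at an unadjusted p under 0.05, and 0 by DESeq2 and by limma) and 0 for the interaction (2 at an unadjusted p under 0.05, and 0 by DESeq2 and by limma). Their log2 changes in vGluT2 were all negative, with a median of −0.38, and 7 of the 13 were positive in Gad2. Of 17 ionotropic glutamate receptor subunits *Grik5* rose (0.52; 1.2% of all genes tested), with 3 of the 17 positive in vGluT2 and a median of −0.16. Of 17 genes of calcium channels and pumps *Atp2b4*, a plasma membrane calcium pump, rose (0.92), with 9 of the 17 positive and a median of 0.07. *Alg3*, a mannosyltransferase, was the 1 of 25 genes of N-linked glycosylation called in vGluT2 IPs (−0.86, SE 0.151, edgeR adjusted p = 0.00146), with a change of −0.04 in Gad2. Of the 25, 12 were positive in vGluT2 (median −0.01) and 22 in Gad2 (median 0.08), where edgeR called 0 (0 at an unadjusted p under 0.05, and 0 by DESeq2 and by limma). Of the 13971 genes tested 6310 were positive in vGluT2, with a median of −0.03, and 7710 in Gad2, with a median of 0.02.

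Other members called in vGluT2 IPs were *Foxo3*, a transcription factor held back by Akt (−0.40), *Hspa8*, the constitutive Hsc70 chaperone (0.49), *Cbln1*, a synapse organizer that granule cells secrete (−0.64), and *Gjd2*, a neuronal gap junction protein (−0.65). Their changes in Gad2 were −0.15, 0.03, −0.31 and 0.00, and none of the differences was called. In heat shock proteins 12 of 14 log2 changes were positive in vGluT2 (median 0.14) and 5 of 14 in Gad2 (median −0.03). Over all 13971 genes tested 6310 were positive in vGluT2 and 7710 in Gad2.

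Lists of housekeeping and stress genes had medians from −0.18 to 0.20 in vGluT2, on both sides of the −0.03 of all genes tested. Cytosolic ribosomal protein genes were positive in 77 of 81 in vGluT2 (median 0.20) and in 76 of 81 in Gad2 (median 0.13), and edgeR called 0 in each (5 and 0 at an unadjusted p under 0.05, and 0 by DESeq2 and by limma). In total RNA 45 of them were called higher, where 12.6% of all genes tested were. Nuclear oxidative phosphorylation genes had medians of 0.02 in vGluT2 and 0.11 in Gad2, and proteasome subunits 0.12 and 0.03. Medians of autophagy genes were 0.12 in vGluT2 and −0.01 in Gad2, those of cholesterol synthesis −0.05 and −0.03, and those of ER chaperones −0.15 and 0.03. Immediate early genes had medians of −0.18 and −0.01, apoptosis genes −0.01 and 0.04, and PRC2 genes −0.05 and −0.02. Clustered Hox genes, which PRC2 keeps silent in many tissues, did not reach the count minimum (0 of 39 tested).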

How the data were processed

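RiboTag IP and total RNA samples were grouped by their labels. The authors made stranded mRNA libraries, ran the nf-core/rnaseq pipeline (STAR, then Salmon) and deposited estimated counts per gene, not normalized. The submitters' processing notes name GRCm38.p6, and no source used here gives the annotation release. Rounding changed 8.57% of the estimated counts, over all 106 samples, which were not whole. Spike-in rows, 0.093 to 2.05% of counts per IP, were left out of library sizes. Identifiers of 55141 of 55401 genes matched GENCODE, whose GRCm38 positions are given.

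The 23 IPs entered 1 fit with a mean per group, after TMM scaling. Genes had to code for protein and average more than 10 counts. Tests were quasi-likelihood F tests in edgeR 4.0.16, run in R 4.3.3. Contrasts gave the change in each cell type and the difference. The SE is the size of the log2 change divided by the square root of F. The test was tried on simulated data. Library measures were compared by exact permutation tests with Benjamini-Hochberg adjustment over all measures.

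Named were all interaction calls (up to 12 a direction), up to 10 genes called in both cell types, the 6 called genes of largest change per cell type outside these, genes named by the study, and up to 4 members of lowest interaction p per list. Results of some genes are not reported here. Members and lists were chosen with earlier results of these data known. Alternatives were DESeq2 1.42.0, limma 3.58.1, other scalings, filters, gene types, each cell type alone, a replicate block, covariates and samples left out.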

Additional observations from a re-analysis of the deposited data

Results flagged for a closer look

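A closer look was taken at 14 genes whose HD change differed between vGluT2 and Gad2 IPs by the edgeR interaction test. The log2 difference was positive for *Rasa4* (1.40), *Dbndd1* (1.33), *Zfpm1* (1.20), *9030025P20Rik* (0.93), *Asic2* (0.90) and *Cbx8* (0.81). It was negative for *Stum* (−1.83), *Extl1* (−1.32), *Clstn2* (−1.29), *Zcwpw1* (−1.25), *Igfbp5* (−1.18), *Armh4* (−1.01), *Rgs16* (−0.91) and *Vsnl1* (−0.81).

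The highest or lowest sample of a group was compared by its gap to the nearest other sample over the range of the group, against the 95% critical value of Dixon's test. Such a sample was found in 24 of 248 groups of values, and chance flags about 1 in 20 groups. In Gad2 HD IPs, replicate 4 stood apart for *Asic2* (185 CPM), *Kcnh3* (0.68 CPM), *Pcgf2* (22.3 CPM), *Snap25* (1590 CPM) and *Plk5* (15.8 CPM). Replicate 1 did so for *Igfbp5* (55.4 CPM) and *Armh4* (331 CPM), and replicate 5 for *Cbx8* (25.5 CPM). In Gad2 controls replicate 5 stood apart for *Bnipl* (1.02 CPM) and *Pcgf2* (18.9 CPM), replicate 2 for *Clstn2* (76.7 CPM) and replicate 6 for *Rgs16* (28.9 CPM). In vGluT2 HD IPs replicate 4 stood apart for *Zfpm1* (30.3 CPM), *Pcgf2* (43.5 CPM) and *Cplx2* (2520 CPM), and replicate 6 for *Ccnd1* (86.7 CPM). In vGluT2 controls replicate 3 did so for *9030025P20Rik* (21.0 CPM) and replicate 1 for *Doc2b* (45.7 CPM).

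Among library measures, vGluT2 control replicate 5 had the lowest mean of granule cell defining markers in its group (10.2 on the log2 CPM scale) and the highest sum of unipolar brush cell and cerebellar nuclei markers (167 CPM). Gad2 HD replicate 2 was high in the latter markers, with a mean of 1.66 on the log2 CPM scale and a sum of 31.0 CPM. The re-sequenced Gad2 HD sample had 93700000 counts, and vGluT2 HD replicate 2 had 0.275% mitochondrial counts.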

How the results depend on the processing

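Interaction calls numbered 15, and 73 by DESeq2, 167 by limma with quality weights, and 50 with the granule cell marker level as a covariate in Gad2 IPs. Each of these held all 15. Fits on all samples that lost some of them were that with the replicate block (below), that with the *Xist* level as a covariate (13 calls, 12 of them among the 15) and that without a filter on low counts (14, all among the 15). Fits that left out 1 sample held 13 to 15 of them. Calls in vGluT2 IPs numbered 361, against 651 by DESeq2 and 991 by limma, and calls in Gad2 IPs 7, against 23 and 125. DESeq2 and limma for the separate cell types were added after seeing the data. Gad2 calls were 4 without a filter on low counts, 2 with each cell type fitted alone (all among the 7, as without the filter) and 4 with the granule covariate (3 among the 7). In total RNA the line by genotype calls were 249, and 1843 by DESeq2. The cause of these shifts was not tested.

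Leaving out 1 sample gave 13 to 27 interaction calls, 196 to 467 vGluT2 calls and 2 to 13 Gad2 calls. Counts moved by over 1.5 times without vGluT2 control replicate 5 (27 interaction calls) and replicate 1 (196 vGluT2 calls). Gad2 calls did so without Gad2 control replicates 1 (13), 3 (3) and 4 (4), Gad2 HD replicates 1 (2), 3 (3), 5 (2) and re1 (2), and vGluT2 HD replicates 1 (4) and 3 (4). No interaction gene changed sign under any alternative run.

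The groups share replicate numbers but come from different mice. Deviations of samples with the same number correlated at −0.266 to 0.661 (median 0.157, 31 pairs), and those of samples with different numbers at −0.68 to 0.604 (median −0.032, 167 pairs). Within Gad2 the 5 pairs of a control and an HD sample with the same number were at 0.563, −0.233, 0.578, 0.495 and 0.082 (median 0.495), against a median of −0.173 for the 31 others. Mouse identifiers of these 5 pairs are adjacent, as are those of Gad2 control replicate 6 and HD sample re1. The mouse of re1 has the number 6 in the cerebrum IPs, but this pair was counted among the 31 others. The study's controls were littermates of HD mice, but no label says that a number marks a litter or batch. Within vGluT2 the 5 pairs were at −0.157 to 0.44 (median 0.037, others 0). In Gad2, 3 of 6 controls and 2 of 6 HD samples correlated best with their own number, and in vGluT2 1 of 5 and 1 of 6. Gad2 control replicate 6 and re1 could not do so, as neither had a partner of the same number. Not every same-number pair was over 0.1 in either cell type, so the numbers were not taken to pair the samples. A replicate block gave each number 1 effect, shared by unrelated mice of the Gad2 and vGluT2 lines, with re1 as a number of its own. It therefore does not model pairs within Gad2. With this block there were 11 interaction calls (9 of them among the 15), 437 vGluT2 calls and 1 Gad2 call, *Ccnd1*. The Gad2 calls of *Grm4*, *Car9*, *Chil5*, *Ccdc63*, *Igfbp5* and *Ttll3* were lost (edgeR adjusted p = 0.233, 0.119, 0.233, 0.193, 0.233 and 0.301). Their log2 changes with the block were −0.83, −1.88, −1.95, −0.92, −0.63 and −1.02.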
